A study of Arabidopsis thaliana with 12 samples.

Results

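The plastid genome of Arabidopsis thaliana carries a small set of genes for the photosynthetic apparatus, and 43 of them were followed here over 12 arrays of grafted plants. They were the plastid genes with a symbol starting psa, psb, pet, atp or ndh, together with rbcL, for which the platform annotation gives a probe set of 1 gene. Of 44 such genes in the gene reference only ndhB had no probe set of its own, because its probe set stands for both copies in the inverted repeat. The 43 genes are 15 of photosystem II (psb), 5 of photosystem I (psa), 6 of the cytochrome b6f complex (pet), 6 of ATP synthase (atp), 10 of the NDH complex (ndh) and rbcL, out of 22746 probe sets tested.

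Photosystem II takes electrons from water, the cytochrome b6f complex passes them on and pumps protons, photosystem I lifts them to ferredoxin, and ATP synthase uses the proton gradient. The NDH complex returns electrons from ferredoxin to the plastoquinone pool around photosystem I, and rbcL encodes the large subunit of Rubisco, the carbon-fixing enzyme. In each complex the plastid genes supply the core while further subunits come from nuclear genes, so that both genomes must be expressed together in a green cell. Most of the plastid genes are transcribed in groups, as long RNAs that are then cut and edited, and most of their mature RNAs carry no poly(A) tail, whereas the labelling of this kind of array starts from such tails.

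Unopened flower buds and leaves were taken from side branches above (scion) and below (rootstock) the junction of homografted Col-0 plants, in which the cut primary inflorescence stem had been grafted back on its own plant at an age of 4 to 5 weeks. The 4 groups were flower buds of the scion, flower buds of the rootstock, leaves of the scion and leaves of the rootstock, each with 3 replicate arrays, harvested 10 to 20 days after grafting from plants kept under 16 h of light and 8 h of dark. All plants were wild type and grafted, so that position on the plant and the effect of grafting cannot be told apart, and the 3 plants with the best scion growth had been selected. The values are log2 expression relative to the median of the same gene over the 12 arrays. They give differences between arrays but no expression level, and they are not comparable between genes as amounts. In whole organs fewer green cells and less RNA per cell cannot be told apart.

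Some arrays stood apart. Rootstock flower bud replicates 1 and 2 were closer to each other than any other replicate pair, with an SD of their difference over all probe sets of 0.208, against 0.318 to 1.05 in the other 11 pairs. No probe set differed between them by more than 1.1, against at least 3.41 in every other pair, and flower bud results are therefore also given with them averaged to 1 sample. The control probe set for cytosolic 25S ribosomal RNA, which carries no poly(A) tail either, varied widely between arrays. It read 0.02, 1.04 and 1.55 in scion flower buds, -2.40, -1.04 and 0.52 in rootstock flower buds, -0.29, -1.78 and 1.40 in scion leaves, and -0.13, -0.02 and 1.34 in rootstock leaves. Its lowest arrays were rootstock flower bud replicates 1 and 2 and scion leaf replicate 2, the same arrays on which the median of the 43 plastid genes was lowest within its organ. The 5S ribosomal RNA control followed this only in part. It read -0.18, -0.32 and -0.31 in scion flower buds and -0.53, -0.15 and -0.17 in rootstock flower buds. In leaves it read 0.47, 0.15 and 0.49 in the scion and 0.17, 0.74 and 0.27 in the rootstock. Rootstock replicate 1 was its lowest flower bud array and scion replicate 2 its lowest leaf array, but rootstock replicate 2 was its highest flower bud array. The part of either control in the results below was not tested.

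**Figure D1:**
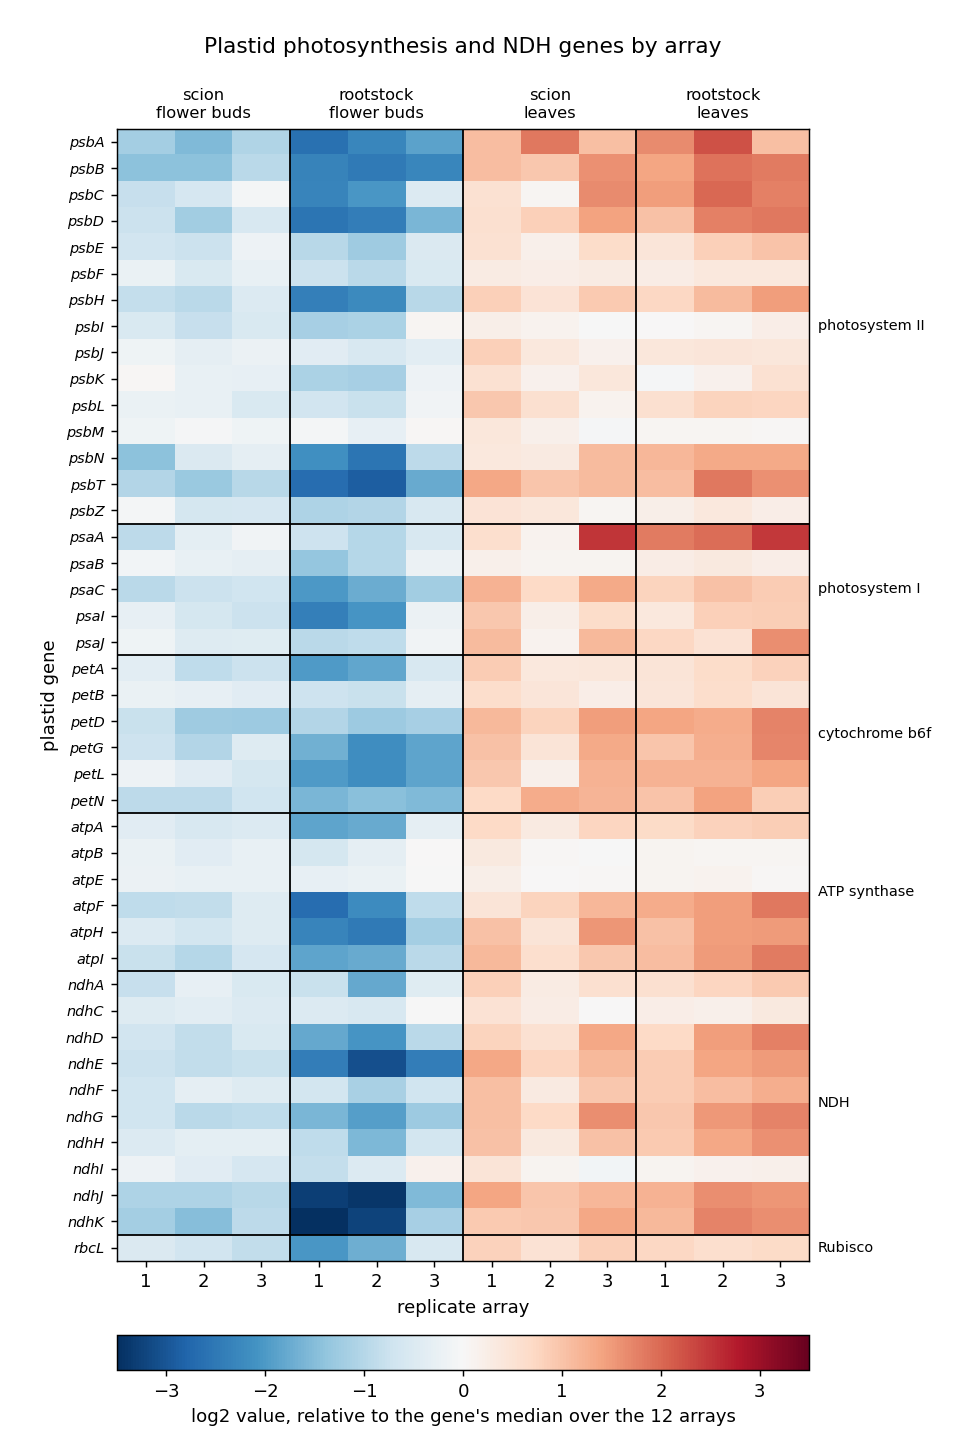
Heat map of the 43 plastid genes (rows, by complex) on the 12 arrays (columns, replicates 1 to 3 of each group), with colour for the log2 value relative to the gene's own median over the arrays. Flower bud arrays are below 0 and leaf arrays above 0 for most genes, and rootstock flower bud replicates 1 and 2 hold the lowest values, down to -3.48 for ndhK.

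The 43 genes together had a median of -0.66, -0.61 and -0.53 in scion flower buds, -1.61, -1.72 and -0.57 in rootstock flower buds, 0.82, 0.36 and 0.94 in scion leaves, and 0.73, 1.08 and 1.06 in rootstock leaves. Every flower bud array was below every leaf array, and rootstock flower buds were split, with replicate 3 among the scion arrays and replicates 1 and 2 about 1 log2 unit lower. The median of all probe sets lay between -0.04 and 0.03 on every array. The spread among the 3 rootstock flower bud arrays was large for these genes, with a median SD of 0.453, against 0.150 over all probe sets. In scion flower buds (0.177 for these genes, 0.161 over all), scion leaves (0.312 and 0.269) and rootstock leaves (0.229 and 0.250) the plastid genes varied between replicates about as much as other probe sets.

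By complex, photosystem II had medians of -0.66, -0.61 and -0.49 in scion flower buds and -1.17, -1.25 and -0.52 in rootstock flower buds. Photosystem I had -0.30, -0.44 and -0.44 in scion flower buds and -1.35, -1.01 and -0.20 in rootstock flower buds, so that rootstock replicate 3 was above every scion array. The cytochrome b6f complex had -0.55, -0.90 and -0.66 in scion flower buds and -1.63, -1.64 and -1.36 in rootstock flower buds. It was the one complex whose median was lower on all 3 rootstock flower bud arrays than on all scion arrays by a clear step. ATP synthase had -0.44, -0.61 and -0.45 in scion flower buds and -1.85, -1.76 and -0.61 in rootstock flower buds. NDH had -0.71, -0.64 and -0.57 in scion flower buds and -1.25, -1.85 and -0.82 in rootstock flower buds. For both, rootstock replicate 3 was just below the lowest scion array. In leaves the complexes ran close together, between 0.13 and 1.19 in the scion and between 0.57 and 1.52 in the rootstock, with scion replicate 2 the lowest leaf array for every complex.

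**Figure D2:**
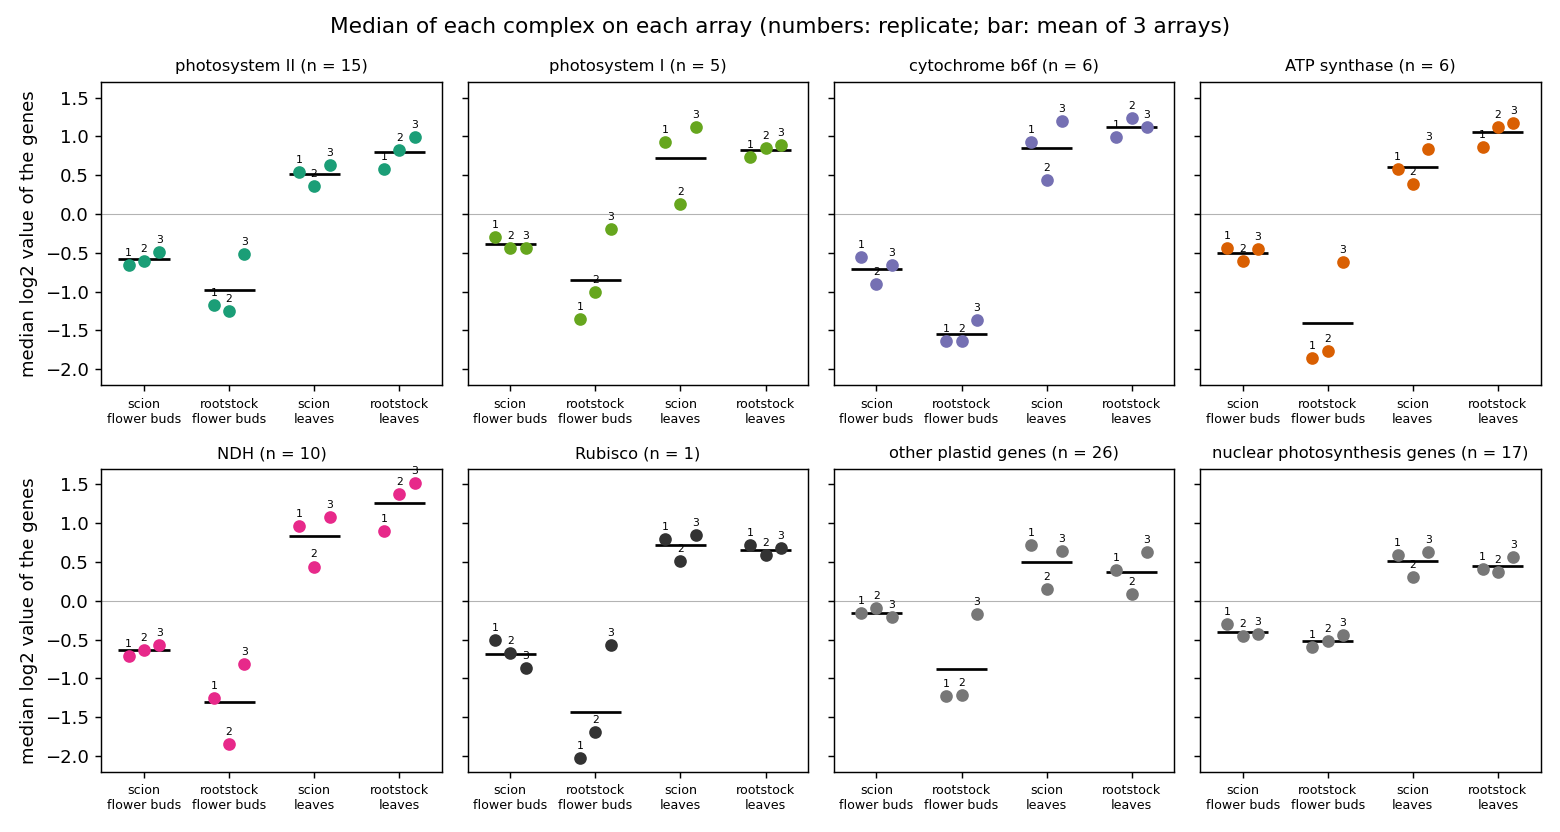
Median log2 value of the genes of each complex on each array (y axis), for scion and rootstock flower buds and scion and rootstock leaves (x axis), with the replicate number above each point and a bar at the mean of 3 arrays. The panels of other plastid genes and of nuclear photosynthesis genes serve for comparison, and the nuclear genes are at -0.60 to -0.30 on all 6 flower bud arrays, without the split between rootstock replicates.

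The plastid genes were lower in flower buds than in leaves on both sides of the graft. In the rootstock all 43 had a difference below 0 (53.9% of all probe sets), with a median of -2.33 on the log2 scale (5.04-fold), and 36 fell at a limma adjusted p of at most 0.05 and at least 2-fold, while none rose. Over all probe sets the median difference was -0.05, 12.01% fell and 13.7% rose. In the scion again all 43 were below 0 (55.02% of all), with a median of -1.23 (2.35-fold). There 27 fell while none rose, where 7.91% of all probe sets fell and 10.5% rose. All 27 were among the 36 of the rootstock. The differences on both sides share no array. The calls are not independent of each other, since 1 fit over 12 arrays gave each gene a single estimate of spread for both. Every flower bud array was below every leaf array for 40 of the 43 genes in the rootstock and for all 43 in the scion, against 27.8% and 22.02% of all probe sets.

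**Figure D3:**
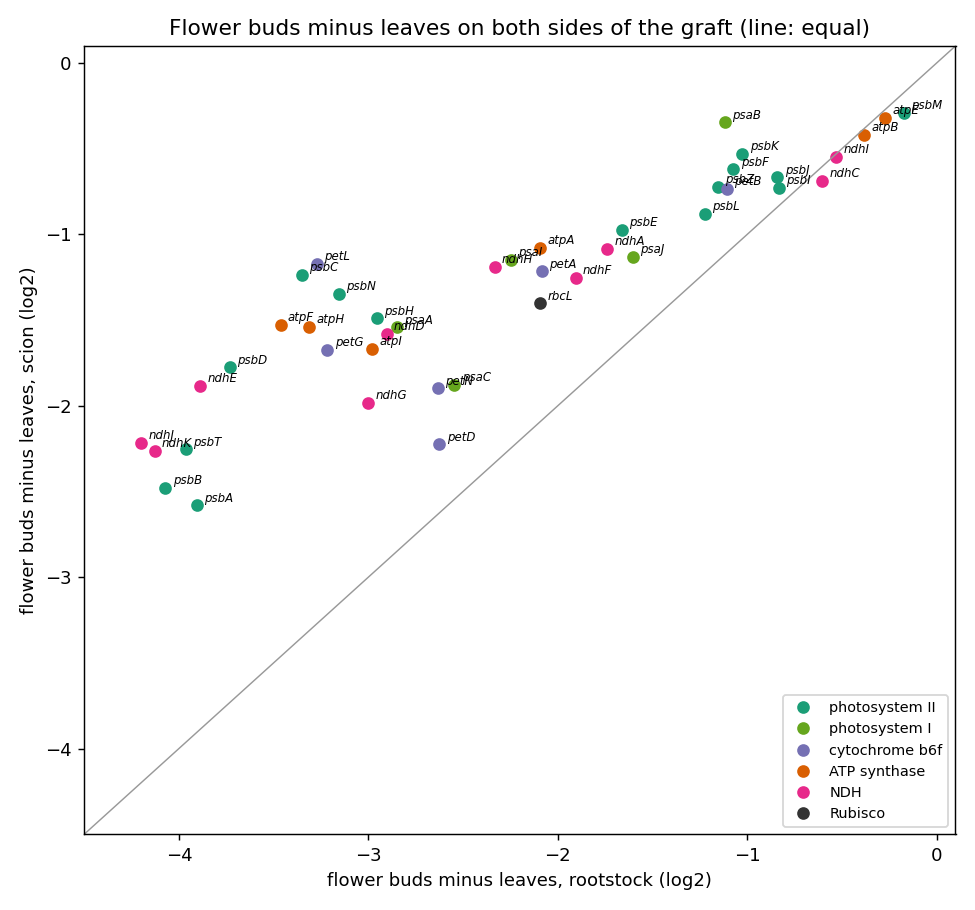
Flower buds minus leaves on the log2 scale for each of the 43 genes, in the rootstock (x axis) and in the scion (y axis), coloured by complex, with a line where both would be equal. All points are below 0 on both axes, from psbM near 0 to psbA, psbB, ndhJ and ndhK at the far end, and 38 of the 43 are above the line, with the larger fall in the rootstock.

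The genes kept a similar order on both sides (Pearson r = 0.904, Spearman rho = 0.894 across 43 genes, which are not independent since many share a transcript). In 38 of them the fall was larger in the rootstock than in the scion. That difference is the scion effect in flower buds minus that in leaves, and it is tested further below.

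Photosystem II held the flattest gene on both sides and, in the scion, also the steepest. psbA encodes the D1 reaction centre protein, which is damaged by light and constantly replaced. It had -1.20, -1.55 and -1.04 in scion flower buds, against 1.07, 1.84 and 1.04 in scion leaves. In the rootstock it had -2.61, -2.29 and -1.87 in flower buds, against 1.65, 2.23 and 1.06 in leaves. It fell in flower buds of the scion by 2.58 ± 0.32 (SE, limma adjusted p = 0.000239, 5.98-fold) and of the rootstock by 3.90 ± 0.32 (adjusted p = 9.88e-06, 15.0-fold). psbB, which encodes the core antenna protein CP47, fell by 2.48 ± 0.21 in the scion (adjusted p = 2.45e-05) and fell by 4.07 ± 0.21 in the rootstock (adjusted p = 5.21e-07, 16.8-fold), the largest fall in this complex.

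psbT, a small subunit near the reaction centre, followed with a fall of 2.25 ± 0.28 in the scion and 3.96 ± 0.28 in the rootstock (limma adjusted p = 0.000251 and 3.98e-06). psbD, for the D2 reaction centre protein, fell by 1.78 ± 0.32 in the scion and by 3.73 ± 0.32 in the rootstock (adjusted p = 0.00216 and 1.33e-05). At the other end psbM, a small subunit at the dimer interface, differed by -0.29 ± 0.14 in the scion and by -0.17 ± 0.14 in the rootstock and passed neither test (adjusted p = 0.131 and 0.347). In all, 6 of 15 photosystem II genes fell in the scion, with a complex median of -0.97, and 12 of 15 in the rootstock, with a median of -1.66.

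In photosystem I 3 of 5 genes fell in the scion (median -1.15) and 5 of 5 in the rootstock (median -2.25). psaC encodes the subunit that holds the terminal iron-sulphur centres, and it fell by 1.88 ± 0.22 in the scion (limma adjusted p = 0.000154) and by 2.55 ± 0.22 in the rootstock (adjusted p = 1.21e-05). psaA and psaB encode the paired reaction centre proteins and are neighbours on 1 transcript. psaA fell by 1.54 ± 0.50 in the scion and fell by 2.85 ± 0.50 in the rootstock (adjusted p = 0.0381 and 0.00111), whereas psaB differed by -0.35 ± 0.23 in the scion (adjusted p = 0.280) and fell by 1.12 ± 0.23 in the rootstock (adjusted p = 0.00312).

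All 6 cytochrome b6f genes fell in the rootstock and 5 of 6 in the scion, with medians of -2.63 and -1.44. petD, for subunit IV, had -0.79, -1.24 and -1.27 in scion flower buds and -1.02, -1.27 and -1.17 in rootstock flower buds, against 1.14, 0.79 and 1.45 in scion leaves and 1.37, 1.30 and 1.73 in rootstock leaves. Its 2 flower bud groups overlapped, and it fell about equally on both sides, by 2.23 ± 0.20 in the scion (limma adjusted p = 3.22e-05) and by 2.62 ± 0.20 in the rootstock (adjusted p = 6.13e-06). petN, a small subunit needed for assembly of the complex in tobacco, fell by 1.90 ± 0.19 in the scion and 2.63 ± 0.19 in the rootstock (adjusted p = 5.98e-05 and 3.71e-06). petB, for the cytochrome b6 protein itself, differed by -0.73 ± 0.16 in the scion, with an adjusted p of 0.00518 but under 2-fold, and fell by 1.11 ± 0.16 in the rootstock (adjusted p = 0.000278).

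ATP synthase split along its 2 transcription units. The 4 genes of the unit atpI, atpH, atpF and atpA fell on both sides, by 1.08 to 1.67 in the scion and by 2.09 to 3.46 in the rootstock. They encode membrane subunits of the proton channel and its stalk and the alpha subunit of the catalytic head. atpB and atpE, for the beta and epsilon subunits of that head, form the other unit and differed by -0.42 ± 0.16 and -0.32 ± 0.11 in the scion and by -0.38 ± 0.16 and -0.27 ± 0.11 in the rootstock (limma adjusted p between 0.0514 and 0.0854). atpB read -0.24, -0.40 and -0.26 in scion flower buds and -0.61, -0.31 and 0.03 in rootstock flower buds, against 0.34, 0.04 and -0.03 in scion leaves and 0.10, 0.08 and 0.07 in rootstock leaves. All its values thus were within 1 log2 unit, while those of atpF ran from -2.66 to 1.85.

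NDH had 8 of 10 genes that fell on each side, with medians of -1.42 in the scion and -2.62 in the rootstock. ndhJ and ndhK, for subunits of the stromal arm, showed the largest falls of all 43 genes in the rootstock. ndhJ had -1.07, -1.09 and -0.97 in scion flower buds and -3.29, -3.40 and -1.54 in rootstock flower buds, against 1.38, 0.97 and 1.17 in scion leaves and 1.21, 1.62 and 1.54 in rootstock leaves. It fell by 2.21 ± 0.40 in the scion (limma adjusted p = 0.00202) and fell by 4.2 ± 0.40 in the rootstock (adjusted p = 2.43e-05, 18.4-fold). ndhG, for a membrane subunit, fell by 1.98 ± 0.27 in the scion and fell by 3.0 ± 0.27 in the rootstock (adjusted p = 0.000383 and 1.69e-05). ndhC, also a membrane subunit, and ndhI, a stromal subunit with iron-sulphur centres, differed by -0.69 and -0.55 in the scion and by -0.60 and -0.53 in the rootstock and were not called.

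rbcL had -0.51, -0.68 and -0.86 in scion flower buds and -2.03, -1.70 and -0.57 in rootstock flower buds, against 0.80, 0.51 and 0.84 in scion leaves and 0.72, 0.58 and 0.68 in rootstock leaves. It fell by 1.40 ± 0.30 in the scion (limma adjusted p = 0.00533) and by 2.09 ± 0.30 in the rootstock (adjusted p = 0.000307). The 7 genes that fell on neither side were atpB, atpE, ndhC, ndhI, psbI, psbJ and psbM, and the 9 that fell in the rootstock but were not called in the scion were petB, psaB, psaI, psbC, psbE, psbF, psbK, psbL and psbZ.

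Genes of 1 transcription unit did not always move alike. In the unit ndhC, ndhK and ndhJ the rootstock difference between flower buds and leaves ranged from -0.60 for ndhC to -4.2 for ndhJ, which are 3.60 log2 units apart, and in the scion from -0.69 for ndhC to -2.26 for ndhK. In the ndh unit of the small single-copy region, with 7 measured genes including psaC, it ranged in the rootstock from -0.53 for ndhI to -3.89 for ndhE. In the psbB unit petB and psbB were 2.97 apart in the rootstock, with petD, next to petB, in between. In psbD, psbC and psbZ the distance was 2.58 in the rootstock, with psbZ, a small antenna-linked subunit, the flat member at -1.15.

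The distance was 1.73 between psaA and psaB, 1.67 between psaJ and petL and 1.37 between atpA and atpF in their units. Members of the other 4 units were closer, within 0.82 of each other in the rootstock. The small subunit genes psbE, psbF, psbL and psbJ ranged only from -1.66 to -0.84 in the rootstock, and psbK and psbI from -1.03 to -0.83. psaI and petA, which lie on 1 long unit with accD, ycf4 and cemA, differed by no more than 0.16. psbN, an assembly factor of photosystem II transcribed from the opposite strand inside the psbB unit, fell by 1.35 ± 0.41 in the scion and 3.16 ± 0.41 in the rootstock (limma adjusted p = 0.0302 and 0.000174), within the range of that unit. Since values carry no level, it cannot be read whether the flat genes were near the upper end of the measuring range.

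Between scion and rootstock flower buds, 38 of the 43 plastid genes were higher in the scion, with a median of 0.73 on the log2 scale (1.66-fold), where 43.99% of all probe sets were higher and their median was -0.04. Only ndhE and petL rose at adjusted p of at most 0.05 and at least 2-fold, and none fell, against a background of 0.237% of probe sets that rose and 0.158% that fell. With rootstock replicates 1 and 2 averaged to 1 sample no plastid gene was called, and no probe set of all rose (0.0%), while 37 of the 43 genes were still higher, with a median of 0.57. Without rootstock replicate 3 all 43 were higher, with a median of 0.97, and 11 rose (atpA, atpF, atpH, ndhE, ndhJ, ndhK, petL, psaI, psbH, psbT and rbcL), where 0.176% of all probe sets rose. Without replicate 1 or 2, or without scion replicate 1, none was called. Other planned fits called more, 18 with array weights and 13 by the methods' analysis of variance, none of them lower in the scion. The array weights were 1.81, 3.9 and 0.681 on rootstock flower bud replicates 1, 2 and 3. The p of the analysis of variance is over all 4 groups, organs included, and does not test scion against rootstock alone. Its count equals the 13 genes at least 2-fold higher in the scion. The share of all probe sets called in these fits is not given here. The control for RNA ends also differed for actin in this comparison. Its 3' minus its 5' probe set was 0.88, 0.42 and 0.33 in scion flower buds, against 0.31, -0.22 and -0.66 in rootstock flower buds. Every scion array was above every rootstock array, though scion replicate 3 and rootstock replicate 1 nearly met. The lowest was rootstock replicate 3, the rootstock array with the highest median of the plastid genes. The same control for GAPDH and ubiquitin overlapped. Its part in the result was not tested.

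**Figure D4:**
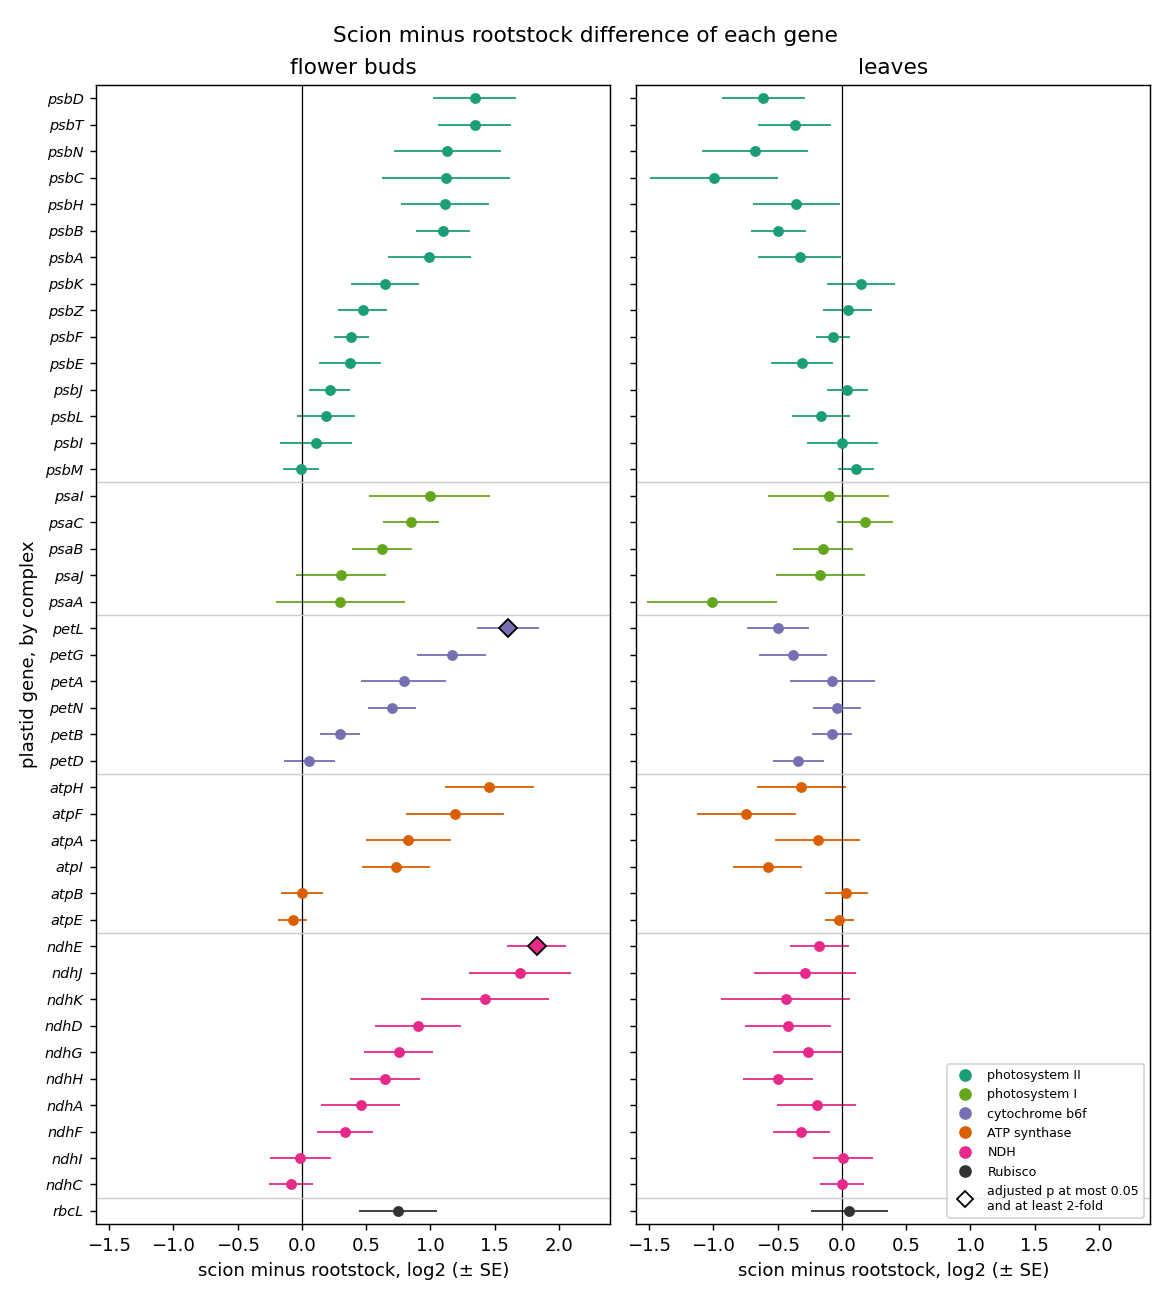
Scion minus rootstock on the log2 scale (x axis, points with SE from limma) for each of the 43 genes (y axis, by complex), in flower buds (left) and leaves (right), with diamonds for genes past the test. Only ndhE at 1.83 and petL at 1.60 pass in flower buds and none in leaves, where most points are left of 0.

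ndhE encodes a small membrane subunit of NDH and read -0.75, -0.87 and -0.78 in scion flower buds, against -2.41, -3.07 and -2.41 in rootstock flower buds. It rose by 1.83 ± 0.23 (SE, limma adjusted p = 0.0138, 3.55-fold, n = 3 arrays each), and all scion arrays were above all rootstock arrays. petL, for a small subunit at the edge of the cytochrome b6f complex, read -0.17, -0.39 and -0.63 in scion flower buds, against -1.97, -2.18 and -1.84 in rootstock flower buds. It rose by 1.60 ± 0.24 (adjusted p = 0.0296, 3.04-fold). In ndhE rootstock replicate 3 was as low as replicate 1, and in petL it was the highest of the 3 rootstock arrays by a small step. With those 2 replicates averaged, ndhE was higher by 1.77 ± 0.23 (adjusted p = 0.0589) and petL by 1.57 ± 0.28 (adjusted p = 0.151). Both genes stand in the table of changed genes that the study drew from these samples, as do 14 of the 43, so that their place here is not independent of that choice.

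By complex, the median scion minus rootstock difference was 0.64 in photosystem II, 0.63 in photosystem I, 0.74 in cytochrome b6f, 0.78 in ATP synthase and 0.70 in NDH, and rbcL differed by 0.75 ± 0.30 (limma adjusted p = 0.378). Within each complex of more than 1 gene the members ranged widely. In photosystem II the difference ran from -0.01 for psbM to 1.35 for psbD, and in photosystem I from 0.30 for psaA to 0.995 for psaI. In cytochrome b6f it ran from 0.06 for petD to 1.60 for petL, in ATP synthase from -0.07 for atpE to 1.46 for atpH, and in NDH from -0.08 for ndhC to 1.83 for ndhE. Taken instead as the difference of the medians per array, averaged over 3 arrays, it was 0.39 in photosystem II, 0.46 in photosystem I, 0.84 in cytochrome b6f, 0.91 in ATP synthase and 0.67 in NDH. The pooled SD between arrays was 0.169 in cytochrome b6f and 0.289 to 0.492 in the other complexes. Differences between complexes were not tested.

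psbB came closest to a call in photosystem II, with -1.43, -1.44 and -0.95 in scion flower buds, against -2.34, -2.48 and -2.30 in rootstock flower buds. Its groups did not overlap, and the difference was 1.1 ± 0.21 (limma adjusted p = 0.0604). psbA differed by 0.99 ± 0.32 (adjusted p = 0.247), and petG, next to petL on the same transcript, by 1.16 ± 0.26 (adjusted p = 0.0977). psaJ, the third gene of that transcript and a small subunit of photosystem I, differed by 0.30 ± 0.35 (adjusted p = 0.863). atpH, which encodes the ring-forming subunit of the proton channel, had -0.49, -0.64 and -0.45 in scion flower buds, against -2.31, -2.47 and -1.18 in rootstock flower buds, a difference of 1.46 ± 0.35 (adjusted p = 0.111). ndhJ differed by 1.70 ± 0.40 (adjusted p = 0.109) and ndhC of the same unit by -0.08 ± 0.17 (adjusted p = 0.939). In all, every scion array was above every rootstock array for 17 of the 43 genes, against 11.1% of all probe sets, and below for none, against 14.1%.

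Rootstock flower bud replicate 3 did not take the same place for every gene. The comparison of its value with the others was chosen after the values had been seen, and describes single arrays without a test. It was above both other rootstock replicates for 38 of the 43 genes, where 38.6% of all probe sets were, and by at least 1 log2 unit for 12 genes, where 0.264% of all probe sets were. For 26 genes it reached at least the lowest scion array. The median of scion mean minus rootstock was 0.97 against the mean of replicates 1 and 2, and 0.15 against replicate 3.

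**Figure D5:**
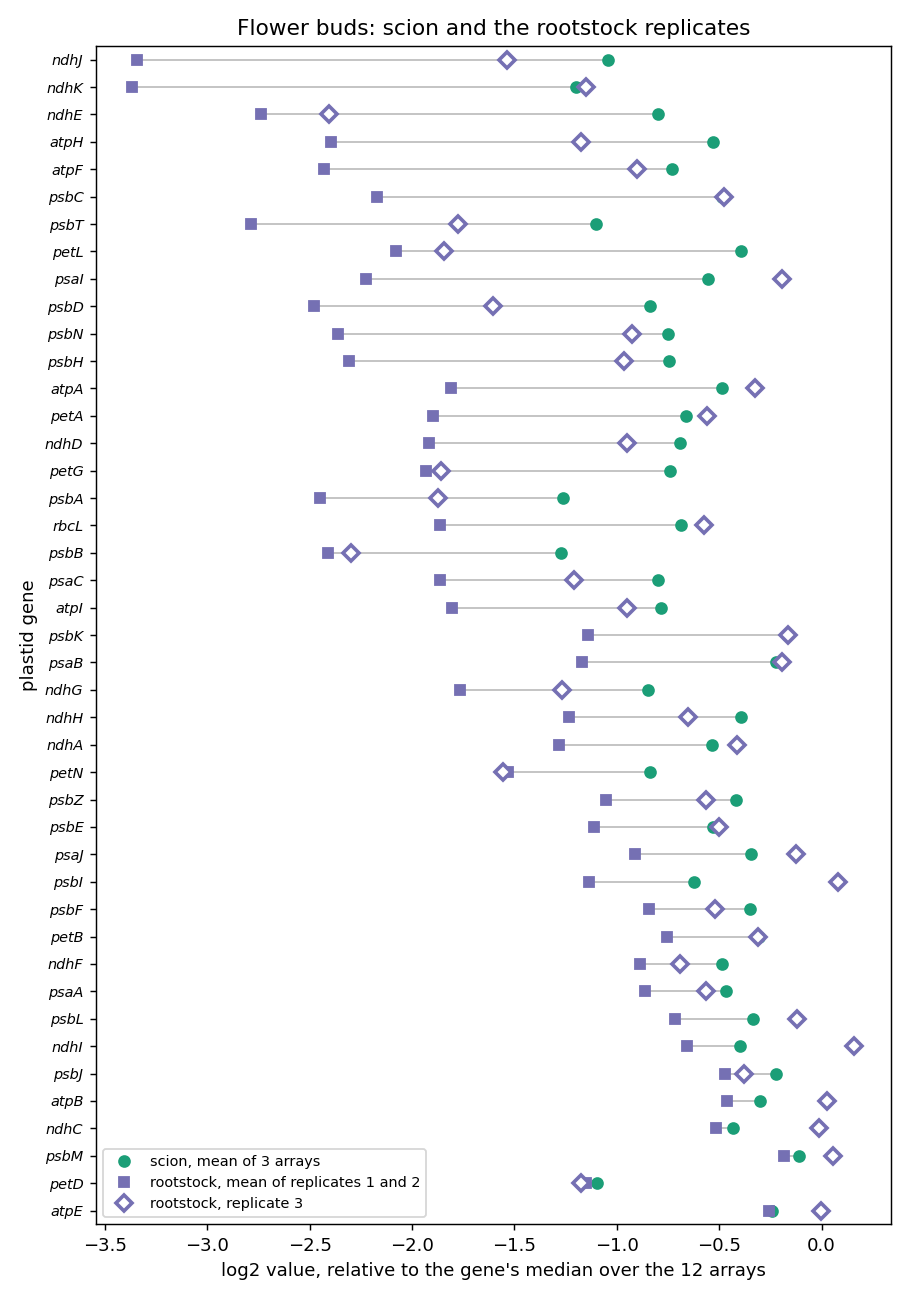
Log2 value (x axis) of each of the 43 genes (y axis, ordered by the distance between the first and the second symbol) in flower buds, as the mean of the 3 scion arrays (circles), the mean of rootstock replicates 1 and 2 (squares) and rootstock replicate 3 (open diamonds). The diamond is near or beyond the circle for genes such as ndhK, psbC and psaI, and is nearer the square for ndhE, petL, petG, psbB and petN.

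In 21 genes the scion mean was at least 1 log2 unit above the mean of rootstock replicates 1 and 2. Over these, replicate 3 covered a median of 78.7% of that distance, where the 635 probe sets of the whole array with such a distance had a median of 3.59%. It covered 122% for psaI, 112% for atpA, 110% for rbcL, 108% for petA, 102% for ndhK and 101% for psbC. It covered only 6.13% for petG, 10.1% for psbB, 13.9% for petL, 17.1% for ndhE and 48.8% for psbA. ndhE is the gene next to psaC, which was at 61.4%, in the same unit as ndhD at 78.7%. psbB shares a unit with psbH at 85.9% and psbT at 60.2%. Low and high shares therefore occurred within 1 complex and within 1 transcription unit. A call between 3 and 3 arrays itself favours genes with a low replicate 3, so that the place of ndhE and petL among the low shares adds nothing to their calls.

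In leaves no plastid gene was called between scion and rootstock, against a background of 0.0264% of probe sets in each direction. At an unadjusted p of at most 0.05 there was 1, psbB, against 1626 of all 22746 probe sets. The methods' analysis of variance, whose p is over all 4 groups, called 1, psaA, as lower, the only gene at least 2-fold lower in the scion. Of the 43 genes 34 were lower and 9 higher in the scion, with a median of -0.20, where 52.2% of all probe sets were lower. The medians by complex were -0.31 in photosystem II, -0.14 in photosystem I, -0.21 in cytochrome b6f, -0.25 in ATP synthase and -0.28 in NDH.

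psaA had 0.60, 0.13 and 2.50 in scion leaves, against 1.81, 1.97 and 2.48 in rootstock leaves, a difference of -1.01 ± 0.50 (limma adjusted p = 0.755). Scion replicates 1 and 2 were low while replicate 3 was above every rootstock array. psbC, for the core antenna protein CP43, was also low on scion replicates 1 and 2, with 0.52, 0.06 and 1.66 in scion leaves, against 1.46, 2.01 and 1.77 in rootstock leaves (-0.996 ± 0.50, adjusted p = 0.756), and its scion replicate 3 lay within the rootstock range. atpF, petL, psaB and psbN were lower on every scion array than on every rootstock array, 4 of 43 genes where 4.89% of all probe sets were, and none was higher on every scion array (4.01% of all). The 4 differed by -0.74, -0.50, -0.14 and -0.68. At the upper end psaC differed by 0.18 ± 0.22 (adjusted p = 0.958), psbK by 0.15 ± 0.26 (adjusted p = 0.977) and rbcL by 0.06 ± 0.30 (adjusted p = 0.993).

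The difference of both scion effects, flower buds minus leaves, was above 0 for 38 of the 43 genes (49.02% of all probe sets), with a median of 0.87. None passed an adjusted p of at most 0.05, as was so for all probe sets (0.0% in either direction). An unadjusted limma p of at most 0.05 was reached by 21 of the 43, against 1760 of all 22746 probe sets. The smallest adjusted p were those of petL (2.1 ± 0.34, limma adjusted p = 0.0882) and ndhE (2.01 ± 0.32, adjusted p = 0.0882), followed by psbB (1.59 ± 0.30, adjusted p = 0.153). This call depended on the fit. With the replicate numbers as a block within each organ, of which the leaf numbers were taken as pairs and the flower bud numbers were not, 4 genes passed (ndhE, petL, psbB and psbD, adjusted p from 0.0366 to 0.0478). With array weights 13 passed. These weights were 1.81, 3.9 and 0.681 on rootstock flower bud replicates 1, 2 and 3, so that the close pair counted most. The share of all probe sets passing in these fits is not given here.

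Further plastid genes behaved in part like the 43. The other 26 with a probe set of their own, for ribosomal proteins, the plastid RNA polymerase and assembly or maturation factors, had medians of -0.16, -0.09 and -0.21 in scion flower buds and -1.23, -1.21 and -0.18 in rootstock flower buds. Rootstock replicates 1 and 2 were thus low for them too, and replicate 3 at the scion values. Of the 26, 24 were higher in flower buds of the scion than of the rootstock (median 0.64) and none was called. Between flower buds and leaves 6 fell in the scion (median -0.72) and 15 in the rootstock (median -1.35). rps14, a ribosomal protein gene that lies next to psaB, had the smallest adjusted p, and fell by 2.27 ± 0.16 in the scion and by 2.97 ± 0.16 in the rootstock (limma adjusted p = 5.15e-06 and 5.27e-07). ycf4, for an assembly factor of photosystem I, fell by 1.91 ± 0.29 in the scion and fell by 3.72 ± 0.29 in the rootstock (adjusted p = 0.000792 and 7.45e-06).

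Nuclear photosynthesis genes could be followed only in part, since 17 of those listed had a probe set that the annotation gives to 1 gene. They were 2 of 11 listed for photosystem II, 2 of 12 for photosystem I and 2 of 4 for ATP synthase. For cytochrome and electron transport it was 1 of 8, and for light harvesting 3 of 20. NDH and cyclic flow had 4 of 17, including PGRL1B. Rubisco and the Calvin cycle had 3 of 11 (RCA, PRK and SBPASE). Not all are subunits of the complexes followed here. In flower buds their median was -0.30, -0.46 and -0.43 in the scion and -0.60, -0.52 and -0.45 in the rootstock, and the difference had a median of 0.10, with no gene called. Between flower buds and leaves 7 of the 17 fell and 1 rose in the scion (median -0.93), and 10 fell and 1 rose in the rootstock (median -1.09). The 4 nuclear genes of NDH and cyclic electron flow were all higher in flower buds of the scion than of the rootstock, with a median of 0.42, and none was called (smallest adjusted p = 0.346, NDHS). Of 2 listed nuclear regulators of plastid RNA with a probe set, CRP1 and RPOTmp, neither was called between scion and rootstock. Mitochondrial respiration genes, which are also encoded outside the nucleus, differed between scion and rootstock flower buds by a median of 0.13 over 21 probe sets, with none called.

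Cell type markers were compared on the same arrays. The floral organ genes AP1, SEP1, SEP2 and SEP3, 4 of 8 listed, rose in flower buds over leaves on both sides of the graft (median 4.93 in the scion and 6.66 in the rootstock), as the organ labels say. Between scion and rootstock flower buds their median differed by -0.02. The green leaf markers RCA and LHCB4.2, 2 of 14 listed, were higher in scion flower buds by 0.34 ± 0.15 and 0.27 ± 0.20 and were not called (limma adjusted p = 0.432 and 0.731). SUC2, a phloem marker and the only vascular marker of 5 that could be followed, read -0.34, -1.49 and -0.87 in scion flower buds, against -2.20, -2.18 and -1.72 in rootstock flower buds (1.13, adjusted p = 0.250). The sets of tapetum and pollen wall genes had a median difference of -0.54 in flower buds, and 1 of 5 rose. In scion leaves the floral genes stood above rootstock leaves by a median of 1.81, with 3 of 4 called, where 0.0264% of all probe sets rose. The tapetum and pollen wall genes stood above by a median of 1.42, with none of 5 called. All 4 floral genes, 4 of the 5 tapetum and pollen wall genes and SUC2 were named only through the study's own table of changed genes. That table lists genes changed between scion and rootstock in these same samples. Differences of these markers between scion and rootstock were therefore favoured by the choice and give no separate support. Values centred on a median hold no level, so that neither a sum of marker levels nor a marker at 0 can be given. The part of cell composition in the plastid gene differences was not tested.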

How the data were processed

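Scion and rootstock organs were measured on ATH1 arrays (1 sample per chip, 3 per group). Per the labels and methods, the authors applied RMA to the intensities in GeneSpring. The deposited log2 values have a row median of 0 over the 12 arrays (largest deviation 5e-07), a step that the sources used here do not state. A filter on dim probe sets, another background correction or normalization, and slide or scan batches could therefore not be tried. Of 22810 probe sets 64 controls were left out and 22746 tested. The annotation names 1 gene for 13513, several for 503 and none for 8730. Its gene reference (TAIR10.1) was used for names and neighbours only.

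Group means were fitted with limma 3.58.1 (R 4.3.3) in 1 fit over 12 arrays (8 residual and 2.49 prior degrees of freedom). Calls needed an adjusted p (Benjamini-Hochberg) no higher than 0.05 and a change of at least 2-fold, except that the difference of scion effects had no fold threshold. Figures and tables were made with matplotlib 3.10.9 and pandas 2.3.3 in Python 3.11.15. On simulated data for the flower bud comparison over 22746 probe sets, the fit found 15 of 50 changes at a log2 size of 1, 45 at 2, 49 at 3 and 48 at 4, with 7 false calls. With 3 arrays per group the number of arrays limits the precision.

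The genes, lists and tests were chosen with earlier results of these data known. Named genes are those called where at most 10 were, otherwise the 3 with the smallest adjusted p per complex, then the extremes of each complex, 1 central subunit per complex and the extremes of each transcription unit. Further genes are named as examples after their values were seen. Some markers were named only by the study's table of changed genes. Equal replicate numbers could mean shared plants. After removal of group means, leaf arrays of equal number were correlated at 0.342, 0.714 and 0.816, and the numbers were taken to pair them. Leaf arrays of unequal number were at -0.788 to 0.396. The highest of these, scion replicate 2 with rootstock replicate 1, was above the lowest equal pair. Flower bud arrays of equal number were at 0.0234, 0.0741 and 0.201 and were not taken as pairs. The main fit had no term for pairs, in leaves either, and only the replicate blocks had one. The methods state 3 independent biological replicates, without saying whether each array came from 1 plant. Alternatives were replicate blocks, array weights, array medians set to 0, a robust prior, each array left out, the methods' analysis of variance, 1 organ alone, no fold threshold and the ndhB probe set as a member. Averaging rootstock flower bud replicates 1 and 2 was added after seeing the data.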

Additional observations from a re-analysis of the deposited data

Results flagged for a closer look

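For atpF and petL every scion array was above every rootstock array in flower buds and below every rootstock array in leaves. Of all probe sets 11.1% were above in this way in flower buds and 4.89% below in leaves. The share with both was not counted, so that the pattern has no background to be read against. The difference of the scion effects was 1.93 for atpF (limma adjusted p = 0.343) and 2.1 for petL (adjusted p = 0.0882), so that neither passed the test of that difference. Groups of 3 arrays are too small for a test of single outlying arrays.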

How the results depend on the processing

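No scion minus rootstock call of a plastid gene held in all settings. In flower buds, where 2 genes rose, the count was 5 with the replicate block over all arrays, 10 with the replicate block within the organ, 18 with array weights, 13 with the methods' analysis of variance, 0 with rootstock replicates 1 and 2 averaged, and 0 to 11 with each array left out (0 without scion flower bud replicate 1 or rootstock flower bud replicate 1 or 2, 11 without rootstock flower bud replicate 3, 1 without scion leaf replicate 1). ndhE was called in 9 of the 12 fits without 1 array (adjusted p 0.0112 to 0.0647) and petL in 8 (0.00948 to 0.185). In leaves the analysis of variance called 1 gene lower and no fit without 1 array called any, and the replicate block called none. Since the p of the analysis of variance is over all 4 groups, organs included, its counts do not test scion against rootstock alone. For the difference of scion effects the count was 4 with the replicate block within the organ, 13 with array weights, and 0 to 1 with each array left out (ndhJ without rootstock flower bud replicate 3, petL without scion leaf replicate 2). For these alternatives a share of all probe sets called is given only for the averaged fit and the fit without rootstock flower bud replicate 3. The causes were not tested. The genes lower in flower buds than in leaves numbered 34 to 37 in the rootstock and 22 to 29 in the scion with each array left out, and stayed within 1.5 times under all other alternatives.

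Differences between groups were also taken from each complex's summary per array, averaged over 3 arrays. Taking means in place of medians over the genes then gave 0.70 for photosystem II between scion and rootstock flower buds (0.39 with medians). Between flower buds and leaves it gave -1.24 for photosystem II in the scion (-1.09 with medians), -2.21 in the rootstock (-1.78) and -2.49 for cytochrome b6f in the rootstock (-2.66). All other such differences moved by less than 1 SD.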

Other observations

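The probe set of ndhB, which stands for both copies of the gene in the inverted repeat and was kept out of the 43, read -0.68, -0.54 and -0.38 in scion flower buds, -0.72, -0.86 and -0.52 in rootstock flower buds, 0.73, 0.62 and 1.74 in scion leaves, and 0.62, 0.38 and 1.18 in rootstock leaves. It encodes a membrane subunit of NDH. It fell in flower buds relative to leaves by 1.56 ± 0.29 in the scion (limma adjusted p = 0.00242) and by 1.43 ± 0.29 in the rootstock (adjusted p = 0.00258). Between scion and rootstock flower buds it differed by 0.17 ± 0.29 (adjusted p = 0.928).

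The control probe sets for the ends of housekeeping RNAs also varied between arrays. The 3' minus the 5' probe set of actin was 0.88, 0.42 and 0.33 in scion flower buds, 0.31, -0.22 and -0.66 in rootstock flower buds, 0.10, -0.16 and -0.94 in scion leaves, and -0.04, -0.40 and -1.15 in rootstock leaves. The same difference for GAPDH was 0.03, -0.18 and -0.14 in scion flower buds, -0.06, -0.12 and -0.23 in rootstock flower buds, 0.62, 0.92 and -0.69 in scion leaves, and 0.03, -0.02 and -0.50 in rootstock leaves. GAPDH thus varied more between leaf arrays than between flower bud arrays.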
